A study of Mus musculus with 9 samples.

Results

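The Hox cluster genes encode homeodomain transcription factors that lie side by side in 4 chromosomal clusters. Members were taken as every row of the count table whose symbol reads Hox, a cluster letter from a to d and a number, apart from genes not analysed here. This gave 36 of 38720 genes, 9 in cluster A, 10 in B, 9 in C and 8 in D. By paralogue number, counted from the 3′ end of each cluster, 9 members belong to groups 1 to 4, 11 to groups 5 to 8 and 16 to groups 9 to 13.

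Polyadenylated RNA of thymic epithelial cells (TEC) of mice was sequenced as 20 libraries in 6 groups. TEC build the thymic stroma, and Foxn1 encodes the forkhead factor on which their development depends. The cortical cells (cTEC) were sorted as negative for CD45 and positive for EpCAM, MHC class II and Ly51, and the medullary cells (mTEC) as binding UEA1 in place of Ly51. The study asked what Foxn1 controls, by lowering its dose or deleting it. In the first set all mice were nude (nu/nu), so that they lack functional endogenous Foxn1, and carried a BAC transgene of FLAG-tagged Foxn1, written wt*. Heterozygous mice (wt*/-::nu/nu) gave 3 cTEC and 2 mTEC libraries, and homozygous mice (wt*/wt*::nu/nu) gave 3 cTEC and 2 mTEC libraries. In the second set all mice were homozygous for beta5t-rtTA and for floxed Foxn1 and had received doxycycline 72 h earlier. The 5 deleted cTEC libraries came from mice heterozygous for tetO-Cre1Jaw/J, in which exons 7 and 8 are removed, and the 5 control cTEC libraries from mice without that Cre. The beta5t promoter drives rtTA in cTEC, so the second set tests cTEC alone. The sources used here give neither ages nor whether the libraries of a group came from separate mice, so p-values measure the spread between libraries, which may be technical.

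Hox genes are activated in the embryo in the order in which they lie in the cluster, from 3′ to 5′, so that low-numbered genes mark the hindbrain and pharynx and high-numbered genes mark the trunk, tail and distal limb. The thymic epithelium derives from the pharyngeal endoderm, at a level where only low-numbered paralogues are normally used. Medullary cells are in addition known for promiscuous gene expression, the low-level transcription of genes of other tissues that serves T cell tolerance. Their specialised subsets can also resemble cells of other organs.

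The totals ran from 20719630 to 22372633 counts per library, so 1 count is worth about the same in each. Levels are given as CPM (read counts scaled to the raw library total) and differences as fitted log2 fold changes with their standard error (SE). Markers separated the subsets as labelled: the summed level of 8 cTEC markers was 13562 to 15089 CPM in homozygous and 1854 to 2065 CPM in heterozygous cTEC, against 486 to 694 CPM in homozygous and 210 to 223 CPM in heterozygous mTEC. The 8 mTEC markers summed to 4607 to 5030 CPM in homozygous and 3987 to 4066 CPM in heterozygous mTEC, against 86.1 to 104 CPM in homozygous and 255 to 361 CPM in heterozygous cTEC. In the second set the cTEC markers summed to 4871 to 17650 CPM in control and 1625 to 2320 CPM in deleted cTEC. Foxn1 itself had 1299 to 1484 CPM in the 3 homozygous and 1144 to 1209 CPM in the 3 heterozygous cTEC libraries, where counts of the nude allele and of the transgene are not separated. A count over the whole Foxn1 gene also covers exons outside the deletion, so its 434 ± 81.1 CPM in deleted against 454 ± 91.6 CPM in control cTEC (SD, n = 5 each) does not check the deletion.

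The plainest feature of the Hox genes was a split along the cluster. In all cTEC groups nearly all Hox counts came from paralogue groups 1 to 4, and in mTEC genes of every position were detected. At least 10 counts were found for 4 members in each homozygous cTEC library, for 7 in each heterozygous cTEC library, for 23 to 25 in heterozygous mTEC and for 29 to 30 in homozygous mTEC. Control cTEC had 4 to 6 such members and deleted cTEC 4 to 5. All 36 members had at least 1 count in both homozygous mTEC libraries, against 9 to 14 in homozygous and 9 to 13 in heterozygous cTEC libraries.

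**Figure D1:**
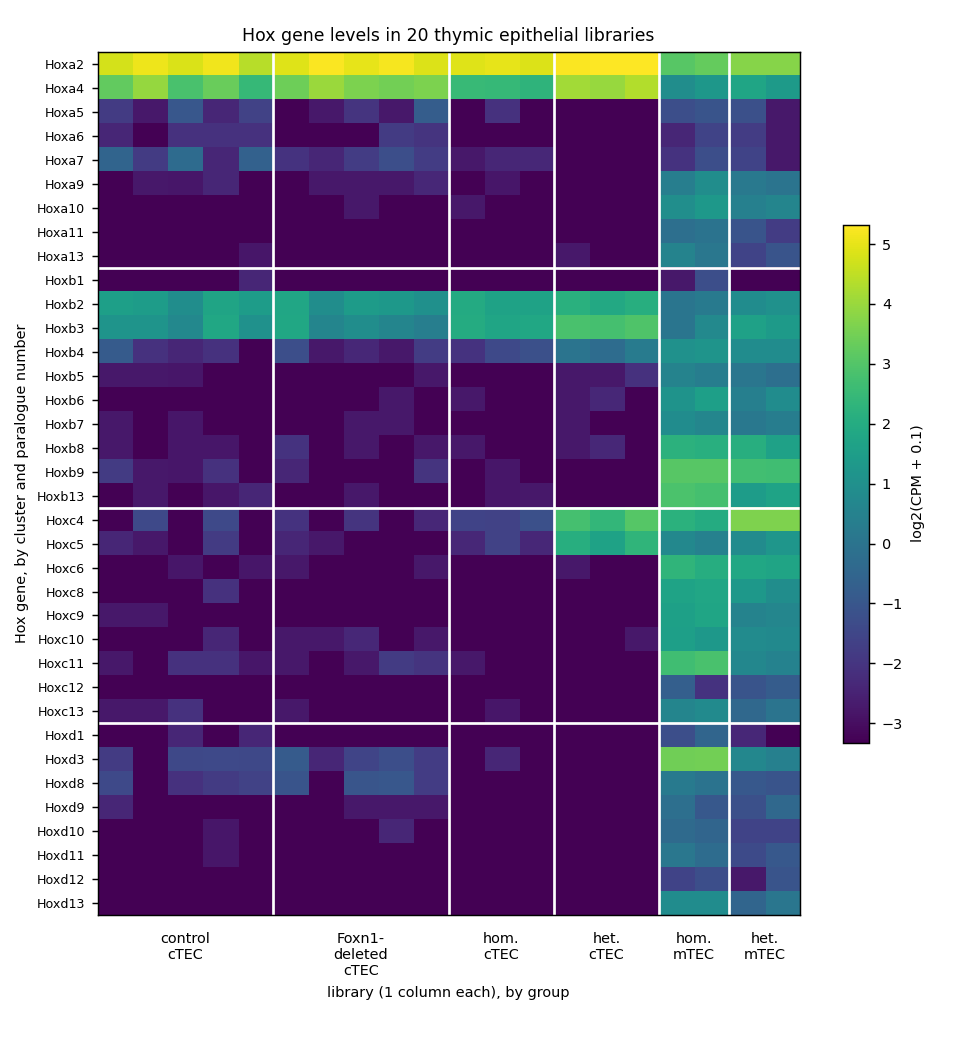
Level of each of the 36 Hox genes (rows, ordered by cluster A to D and paralogue number) in each of the 20 libraries (columns, by group), as log2(CPM + 0.1). Hoxa2, Hoxa4, Hoxb2 and Hoxb3 are filled in every column, and the lower rows of all clusters are filled mainly in the 4 mTEC columns; hom. and het. mean homozygous and heterozygous for the transgene.

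The summed level of paralogue groups 1 to 4 was 72.0 to 80.4 CPM in heterozygous cTEC and 41.4 to 44.6 CPM in homozygous cTEC. It was lower in mTEC, at 36.0 to 37.3 CPM in heterozygous and 29.7 to 32.7 CPM in homozygous cells. The sum over groups 9 to 13 went the other way, from at most 0.0459 CPM in heterozygous and at most 0.181 CPM in homozygous cTEC to 19.2 to 20.8 CPM in heterozygous and 39.4 to 39.5 CPM in homozygous mTEC. Groups 5 to 8 had the lowest sum of the 3 in mTEC, and summed to 0.190 to 0.453 CPM in homozygous cTEC, 3.29 to 5.14 CPM in heterozygous cTEC, 14.5 to 16.0 CPM in heterozygous mTEC and 20.3 to 21.1 CPM in homozygous mTEC. As a share of all Hox counts, groups 1 to 4 made up 98.6 to 99.4% in homozygous cTEC, 93.9 to 95.6% in heterozygous cTEC, 50.5 to 51.5% in heterozygous mTEC and 33.0 to 35.4% in homozygous mTEC. Long transcripts weigh more in such sums, so they compare groups of libraries and not genes.

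**Figure D2:**
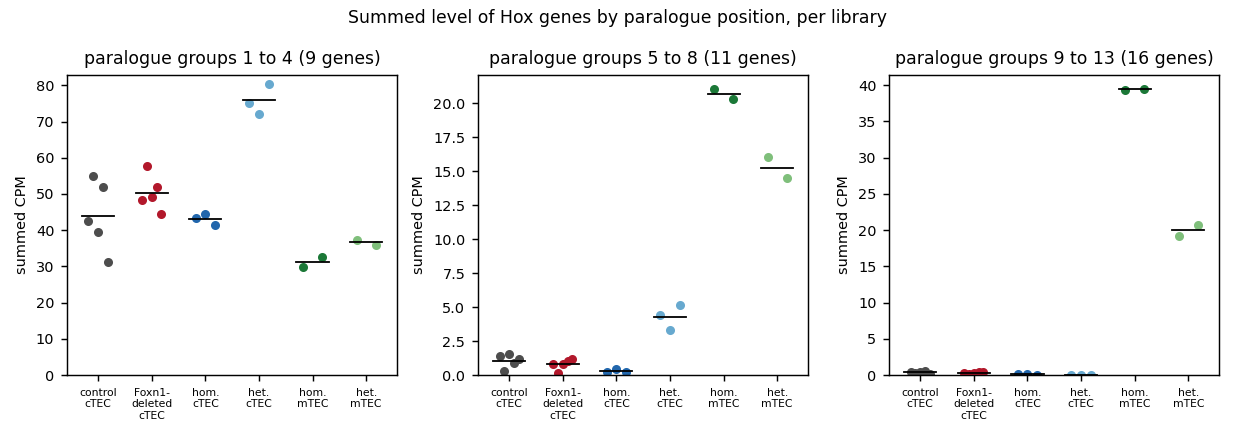
Summed CPM of the Hox genes of paralogue groups 1 to 4, 5 to 8 and 9 to 13 (panels) in each library, with 1 point per library and a bar at the group mean. The mTEC points are the lowest for groups 1 to 4 apart from overlap with control cTEC, and are far above all cTEC points for groups 9 to 13.

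Promoter sequence was available in RefSeq (GRCm38.p6) for 20 of the 36 members, with 22 promoters. Shown are the 250 bases before the start of 4 genes that carry the comparisons below: Hoxa2 (chr6:52164832-52165081, minus strand), read in every group, Hoxb4 (chr11:96318017-96318266, plus strand) and Hoxc4 (chr15:103034145-103034394, plus strand), which moved with both subset and dose, and Hoxd3 (chr2:74711743-74711992, plus strand), the member with the largest fitted dose difference among those tested in mTEC. The Hoxb4 window lies within the longer gene model of Hoxb3, and the Hoxc4 window within the longer model of Hoxc4. Capitals mark GACGC or GCGTC, the core that FOXN1 binds on either strand, and TAAT or ATTA, the homeodomain core on either strand.
Hoxa2: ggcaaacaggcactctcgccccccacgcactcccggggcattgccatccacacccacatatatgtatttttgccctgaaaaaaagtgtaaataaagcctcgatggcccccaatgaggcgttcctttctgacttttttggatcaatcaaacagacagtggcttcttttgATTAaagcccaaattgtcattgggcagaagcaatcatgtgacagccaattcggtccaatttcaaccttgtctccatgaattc
Hoxb4: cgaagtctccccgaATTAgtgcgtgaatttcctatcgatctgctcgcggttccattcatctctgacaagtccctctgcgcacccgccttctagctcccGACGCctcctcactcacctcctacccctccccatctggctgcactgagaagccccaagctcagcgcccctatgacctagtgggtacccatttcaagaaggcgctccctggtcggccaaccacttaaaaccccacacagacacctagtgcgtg
Hoxc4: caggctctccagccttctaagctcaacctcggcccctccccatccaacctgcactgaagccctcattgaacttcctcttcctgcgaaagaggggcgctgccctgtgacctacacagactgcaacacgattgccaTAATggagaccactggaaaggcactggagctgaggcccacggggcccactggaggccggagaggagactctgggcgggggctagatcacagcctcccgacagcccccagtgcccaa
Hoxd3: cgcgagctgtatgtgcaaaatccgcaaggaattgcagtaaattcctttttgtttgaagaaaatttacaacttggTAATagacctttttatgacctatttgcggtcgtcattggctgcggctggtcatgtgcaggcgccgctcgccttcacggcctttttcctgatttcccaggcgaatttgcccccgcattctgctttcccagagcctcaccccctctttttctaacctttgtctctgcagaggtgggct
The FOXN1 core was found in 7 of the 22 member promoters (31.8%), among these 4 only in that of Hoxb4, against 22.6% of all 32851 promoters of the same length. The homeodomain core was found in 17 of 22 (77.3%) against 54.9%. The member promoters had a median of 12.5 CpG dinucleotides and 58.6% G and C, against 6 and 52.4% over all promoters. These matches are descriptions of the letters and not evidence of binding.

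Between the subsets, Hoxa2, Hoxa4, Hoxb2 and Hoxb3 were higher in cTEC. Hoxa2, the selector gene of the second pharyngeal arch, had 29.6, 32.2 and 29.4 CPM in homozygous cTEC and 8.43 and 9.68 CPM in homozygous mTEC. Hoxa4 had 5.52, 5.44 and 4.80 CPM in cTEC and 1.81 and 2.27 CPM in mTEC. For both genes every cTEC library was above both mTEC libraries. Hoxb2, a gene of hindbrain segment identity, had 3.83, 3.04 and 3.09 CPM in cTEC and 0.926 and 1.06 CPM in mTEC. Hoxb3 had 3.93, 3.26 and 3.47 CPM in cTEC and 0.926 and 1.57 CPM in mTEC, again without overlap. The fitted log2 differences of homozygous mTEC against cTEC were -1.99 ± 0.09 (SE) for Hoxa2, -1.97 ± 0.22 for Hoxb2, -1.75 ± 0.23 for Hoxb3 and -1.61 ± 0.19 for Hoxa4. All 4 passed the edgeR quasi-likelihood test at an adjusted p of 0.05 (Benjamini-Hochberg over 19222 genes), the least extreme being Hoxb3 with adjusted p = 7.59e-06. In bulk RNA a smaller share of cells that use a gene and less RNA per cell cannot be told apart.

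Of the 30 members tested, 26 were higher in homozygous mTEC and 4 lower, where 43.2% of all genes tested were higher and 39.4% lower. The filter on low counts admitted Hoxd3 and, other than Hoxc5, the members of groups 5 to 13 through their mTEC counts alone, so that they had to differ, and the count of higher members cannot be read against the background. Without normalization factors the share of higher genes among all calls was 62.6% in place of 52.3%, with 26 members higher and 4 lower as before. Over all 36 members, 32 had both homozygous mTEC libraries above all 3 cTEC libraries and 4 had both below. The share of all genes separated in this way was not counted, so such numbers, here and below, only describe the libraries. The 6 members that were not tested (Hoxa5, Hoxa6, Hoxa7, Hoxb1, Hoxd1 and Hoxd12) all had few counts, from 7 to 20 over the 2 homozygous mTEC libraries.

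Around paralogue 4 the direction turned. Hoxb4, known for its effect on blood stem cell expansion, had 1.99 and 2.13 CPM in homozygous mTEC against 0.140, 0.272 and 0.333 CPM in homozygous cTEC, a log2 difference of 2.78 ± 0.32 (SE, adjusted p = 2.42e-06, edgeR). Hoxc4, a gene of the cervical region, had 4.49 and 3.93 CPM in mTEC against 0.234, 0.227 and 0.333 CPM in cTEC, a log2 difference of 3.73 ± 0.31. Hoxc5 had 1.53 and 1.30 CPM in mTEC against 0.0935, 0.227 and 0.0951 CPM in cTEC, a log2 difference of 3.05 ± 0.46. So Hoxa4 and its paralogues Hoxb4 and Hoxc4 stood on opposite sides between the same libraries. In cluster D, where Hoxd1 and Hoxd3 are the only members below paralogue 8, Hoxd3 had 10.8 and 11.2 CPM in homozygous mTEC against 2 counts in all over the 3 homozygous cTEC libraries, a ratio of 354 with a 95% counting interval of 97.4 to 2929. Hoxd1 had 20 counts in homozygous mTEC and 0 in homozygous cTEC, which is at least 9.95-fold higher against a floor of 3 counts over the group.

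**Figure D3:**
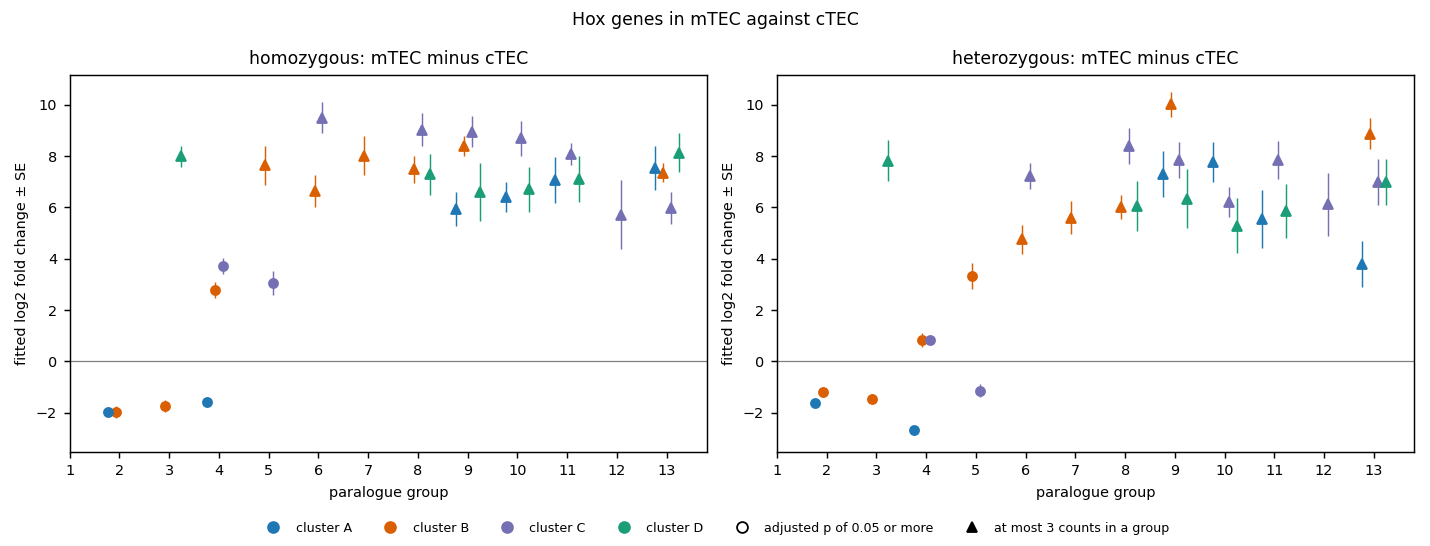
Fitted log2 fold change of mTEC against cTEC (± SE) for each tested Hox gene, by paralogue group and cluster (colour), in homozygous (left) and heterozygous (right) mice. Hoxa2, Hoxa4, Hoxb2 and Hoxb3 lie below 0 in both panels, Hoxc5 lies above 0 on the left and below 0 on the right, and the triangles, at most 3 counts in a group, are set by the prior count and are no estimate of size.

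Among the transgenic libraries, the genes beyond paralogue 5 were read almost only in mTEC. In the second set Hoxa7 was an exception, since control cTEC had its highest group mean, 0.425 CPM. The 29 members other than Hoxa2, Hoxa4, Hoxb2, Hoxb3, Hoxb4, Hoxc4 and Hoxc5 had at most 3 counts in any transgenic cTEC library and at most 16 counts, or 0.722 CPM, in any control or deleted cTEC library. In cluster B, Hoxb5 had 1.34 and 1.16 CPM in homozygous and 0.942 and 0.802 CPM in heterozygous mTEC. Hoxb6 had 2.08 and 2.82 CPM in homozygous and 1.22 and 1.75 CPM in heterozygous mTEC. Hoxb7 had 1.76 and 1.48 CPM in homozygous and 0.989 and 1.18 CPM in heterozygous mTEC. For these 3 trunk genes both homozygous libraries were above both heterozygous ones, but none of them passed the edgeR test of dose in mTEC given below. Hoxb8, a trunk gene also used in myeloid progenitors, had 4.58 and 4.26 CPM in homozygous and 4.14 and 3.02 CPM in heterozygous mTEC. Hoxb9, a gene of the thoracic region, had 8.38 CPM in each homozygous and 6.50 and 6.32 CPM in the heterozygous mTEC libraries. Hoxb13, known from the hindgut and prostate, had 7.32 and 6.80 CPM in homozygous and 2.64 and 3.16 CPM in heterozygous mTEC. In these 3 genes too the homozygous libraries were the higher ones, but Hoxb13 passed that test and Hoxb8 and Hoxb9 did not. For Hoxb7 and Hoxb5, with 0 counts in homozygous cTEC, homozygous mTEC was at least 34.8-fold and at least 26.9-fold higher than cTEC against the floor of 3 counts.

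In cluster C the same held from paralogue 6 on. Hoxc6, which marks the start of the thorax, had 5.00 and 4.07 CPM in homozygous and 3.48 and 3.21 CPM in heterozygous mTEC. Hoxc8 had 3.15 and 3.38 CPM in homozygous and 2.35 and 1.79 CPM in heterozygous mTEC, and Hoxc9 had 2.92 and 3.29 against 1.37 and 1.46 CPM. Against homozygous cTEC, where all 3 genes had 0 counts, homozygous mTEC was at least 97.5-fold higher for Hoxc6, 70.2-fold for Hoxc8 and 66.7-fold for Hoxc9. Hoxc10, a lumbar gene, had 2.87 and 2.31 CPM in homozygous and 1.70 and 1.60 CPM in heterozygous mTEC. Hoxc11 had 6.30 and 7.08 CPM in homozygous and 1.51 and 1.32 CPM in heterozygous mTEC. Hoxc13, a regulator of hair and nail keratins, had 1.44 and 1.67 CPM in homozygous and 0.659 and 0.897 CPM in heterozygous mTEC. All 3 had the homozygous libraries above the heterozygous ones, with the widest gap at Hoxc11. The edgeR test of dose in mTEC called Hoxc9, Hoxc11 and Hoxc13 and did not call Hoxc6, Hoxc8 and Hoxc10.

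The 5′ genes of clusters A and D were read at lower levels. Hoxa9, known from blood progenitors and leukaemia, had 1.20 and 1.81 CPM in homozygous and 1.04 and 0.897 CPM in heterozygous mTEC. Hoxa10, needed for the uterus and the proximal limb, had 1.85 and 2.31 CPM in homozygous and 1.27 and 1.42 CPM in heterozygous mTEC. Hoxa13, which patterns hands, feet and the urogenital tract, had 1.34 and 0.972 CPM in homozygous and 0.235 and 0.378 CPM in heterozygous mTEC. Hoxd13, which shapes the digits, had 1.76 CPM in each homozygous and 0.612 and 0.944 CPM in the heterozygous mTEC libraries. In all 4 genes the homozygous libraries were above the heterozygous ones. The edgeR test of dose in mTEC called Hoxa13 and Hoxd13 and did not call Hoxa9 and Hoxa10. The 12 members with a mean below 1 CPM in every group (Hoxa5, Hoxa6, Hoxa7, Hoxa11, Hoxb1, Hoxc12, Hoxd1, Hoxd8, Hoxd9, Hoxd10, Hoxd11 and Hoxd12) ranged from 0 to 1.06 CPM over all libraries. In Hoxa11, Hoxd8, Hoxd10 and Hoxd11 homozygous mTEC lay higher, with Hoxa11 at 0.787 and 0.880 CPM in homozygous and 0.377 and 0.189 CPM in heterozygous mTEC, while Hoxc12 and Hoxd9 overlapped between the doses. The filter on low counts admitted Hoxa11, Hoxa13, Hoxd8, Hoxd10 and Hoxd11 through homozygous mTEC alone, so that they had to lie higher there.

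In heterozygous mice 25 members were higher and 5 lower in mTEC than in cTEC, where 40.4% of all genes tested were higher and 31.6% lower, with the same limit from the filter. Libraries did not overlap for 29 members above and 5 below out of 36, and the share over all genes was not counted. Hoxa2, Hoxa4, Hoxb2 and Hoxb3 again fell in mTEC, by 2.69 ± 0.17 (SE) on the log2 scale for Hoxa4, 1.63 ± 0.08 for Hoxa2, 1.46 ± 0.19 for Hoxb3 and 1.21 ± 0.20 for Hoxb2. Hoxc5 joined them, with 1.70 and 2.22 CPM in heterozygous mTEC against 4.16, 3.06 and 5.00 CPM in heterozygous cTEC, a log2 difference of -1.14 ± 0.25 (adjusted p = 0.00106, edgeR). Hoxc4 and Hoxb4 were higher in mTEC by smaller margins than in homozygous mice, with log2 differences of 0.81 ± 0.17 and 0.83 ± 0.26. The call of Hoxb4 was not made by DESeq2 (adjusted p = 0.0564). Each transgenic group enters a subset comparison, a dose comparison and their interaction, so these share libraries and are not independent.

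Other markers differed between the subsets as well. In homozygous mTEC the 6 macrophage and dendritic cell markers summed to 523 to 618 CPM, against 3.47 to 5.70 CPM in homozygous cTEC, and the 4 B cell markers to 33.9 to 41.3 CPM against 0.333 to 0.635 CPM. The 6 Schwann and neural crest markers summed to 130 to 132 CPM against 9.61 to 13.6 CPM, the 7 endothelial markers to 92.4 to 99.4 CPM against 4.95 to 7.01 CPM and the 4 parathyroid markers to 126 to 130 CPM against 5.61 to 7.43 CPM. The 12 fibroblast markers were lower, at 466 to 526 CPM against 752 to 825 CPM, although 8 of them were higher by test and 1 lower. Of all genes tested, 43.2% were higher and 39.4% lower. No marker in these lists was at 0 in homozygous mTEC. The part of these cells in the Hox levels was not tested.

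In cTEC, the lower transgene dose came with higher levels of genes in the middle of the 3′ part, above all Hoxc4 and Hoxc5. Hoxc4 had 6.67, 5.14 and 8.21 CPM in heterozygous cTEC against 0.234, 0.227 and 0.333 CPM in homozygous cTEC, a log2 difference of 4.50 ± 0.27 (SE, adjusted p = 2.66e-08, edgeR). Hoxc5 had 4.16, 3.06 and 5.00 CPM against 0.0935, 0.227 and 0.0951 CPM, a log2 difference of 4.68 ± 0.36 (adjusted p = 2.36e-07, edgeR). In counts this is a ratio of 25.3 for Hoxc4 (95% counting interval 15.6 to 43.9) and 29.2 for Hoxc5 (15.2 to 64.6). Control cTEC had at most 0.274 CPM of Hoxc4 and 0.181 CPM of Hoxc5, close to the homozygous transgenic cTEC and far below the heterozygous ones. The lowest heterozygous library was above every other cTEC library for both genes. These 2 genes are neighbours on chromosome 15, at chr15:103018097-103036856 for Hoxc4 and chr15:103014008-103017429 for Hoxc5, while the next genes of the cluster, Hoxc6 and Hoxc8, had at most 1 count over the 3 heterozygous cTEC libraries.

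The paralogues of group 4 moved the same way. Hoxa4 had 17.2, 15.8 and 20.1 CPM in heterozygous against 5.52, 5.44 and 4.80 CPM in homozygous cTEC, a log2 difference of 1.62 ± 0.13 (SE, adjusted p = 4.62e-07, edgeR), and its gene model overlaps another, so its reads may not be fully separated. Hoxb4 had 0.914, 0.742 and 1.101 CPM against 0.140, 0.272 and 0.333 CPM, a log2 difference of 1.73 ± 0.34 (adjusted p = 0.00105, edgeR). Neither overlapped between the doses. Hoxb3 had 7.08, 6.77 and 7.57 CPM against 3.93, 3.26 and 3.47 CPM, a log2 difference of 0.87 ± 0.16. Its gene model overlaps that of Hoxb4, so reads of the 2 genes may not be fully separated. Hoxa2 had 38.8, 40.0 and 39.3 CPM against 29.6, 32.2 and 29.4 CPM, a log2 difference of 0.24 ± 0.07 (adjusted p = 0.0129, edgeR), and missed the threshold without homozygous cTEC library 1 (adjusted p = 0.0541) or 3 (adjusted p = 0.0579).

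Hoxb2 did not pass the test of dose in cTEC. It had 4.39, 3.62 and 4.18 CPM in heterozygous and 3.83, 3.04 and 3.09 CPM in homozygous cTEC, overlapping, with a log2 difference of 0.16 ± 0.16. Hoxb5 passed (log2 difference 3.83 ± 1.33, adjusted p = 0.0368, edgeR) on 5 counts over the heterozygous and 0 over the homozygous libraries, at least 1.65-fold higher against the floor. The call of Hoxb5 was lost without heterozygous cTEC library 3 (3.13, adjusted p = 0.132) and without homozygous cTEC library 1, 2 or 3 (adjusted p = 0.0741, 0.0750 and 0.0733).

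Altogether 7 of the 30 tested members were higher in heterozygous cTEC, where 20.9% of all genes tested were higher. Without normalization factors the share of higher genes among all calls was 67.5% in place of 48.9%, and 7 members were again called higher. With edgeR, 0 were lower, where 21.9% of all genes were, 0 were lower at an unadjusted p under 0.05, and DESeq2 and limma-voom also called 0. Most of the tested members had too few counts in cTEC to be called in either direction. Libraries of the doses did not overlap for 7 members above and 1 below out of 36, and the share over all genes was not counted. By cluster, the members called higher were 2 in A, 3 in B, 2 in C and 0 in D, and by position 5 in groups 1 to 4 and 2 in groups 5 to 8.

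**Figure D4:**
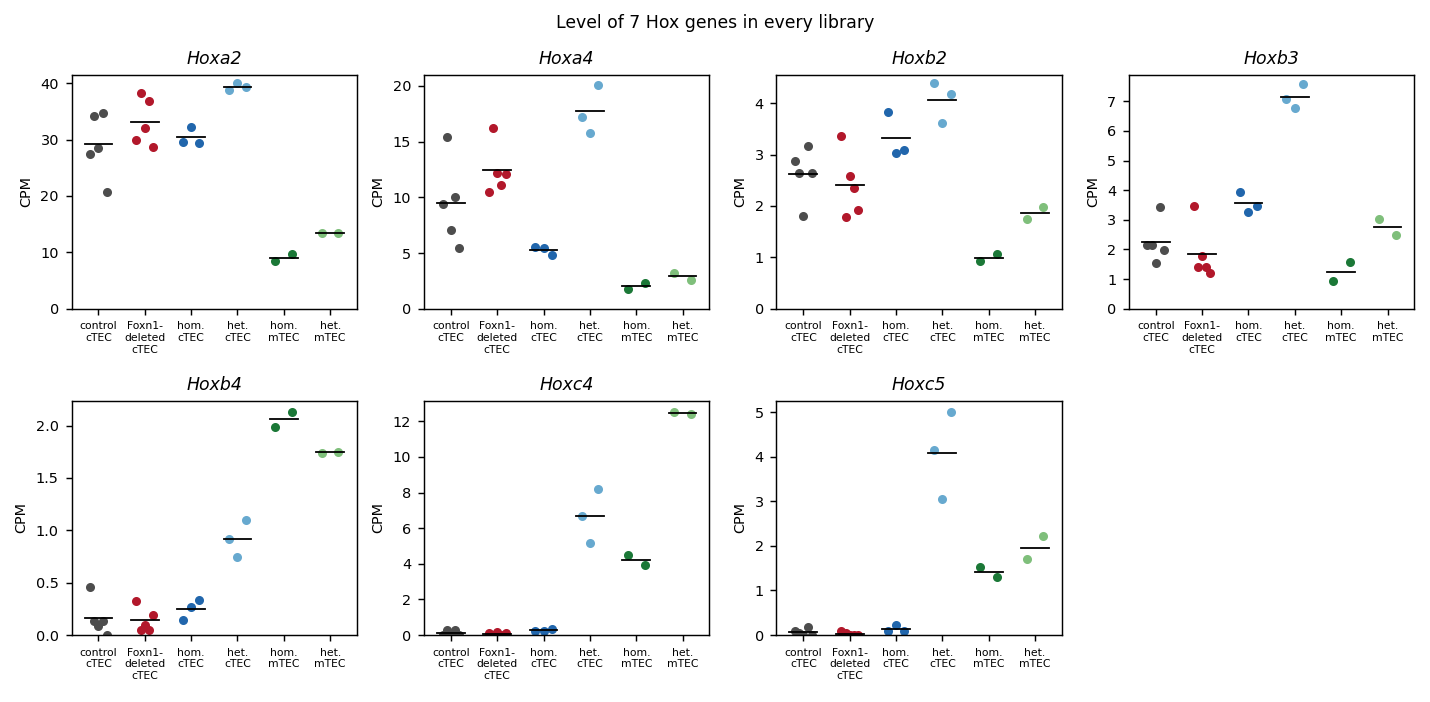
CPM of 7 Hox genes in every library, 1 point per library with a bar at the group mean; each panel has its own axis from 0. Hoxc4 and Hoxc5 are near 0 in all cTEC groups apart from heterozygous cTEC, whereas Hoxa2 is lowest in the mTEC groups.

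Heterozygous cTEC differed from homozygous cTEC in markers of other cells too. The 12 fibroblast markers summed to 936 to 1149 CPM against 752 to 825 CPM, with 6 higher and 3 lower by test. Dcn, a matrix proteoglycan, had 153 ± 1.34 against 30.2 ± 2.01 CPM (SD, n = 3 each). The 6 Schwann and neural crest markers summed to 30.4 to 37.1 CPM against 9.61 to 13.6 CPM, with 2 higher, 0 lower and 4 not called by test, and Foxd3 at 0 in heterozygous cTEC. Sox10, the defining factor of that lineage, had 6.11 ± 0.591 against 0.0617 ± 0.0251 CPM (SD, n = 3 each). The 4 parathyroid markers summed to 7.39 to 29.9 CPM against 5.61 to 7.43 CPM, with 2 higher and 1 lower by test. The 8 thymocyte markers summed to 10.4 to 17.6 CPM against 59.4 to 97.8 CPM, all 8 lower by test. The 8 mTEC markers summed to 255 to 361 CPM against 86.1 to 104 CPM, with 4 higher and 3 lower by test. Of all genes tested, 20.9% were higher and 21.9% lower. In control cTEC, which belong to the other cross, the fibroblast markers summed to 1166 to 1690 CPM. The part of these cells in the Hox differences was not tested.

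In mTEC, the lower dose came with higher levels of 4 low-numbered genes and with lower levels of 11 members. By position, 9 of 15 tested members were lower in groups 9 to 13, 1 of 8 in groups 5 to 8 and 1 of 7 in groups 1 to 4. Of the 30 tested members 4 were higher, where 28.9% of all genes tested were higher, and 11 lower, where 30.8% were lower. The filter on low counts admitted Hoxa11, Hoxa13, Hoxd8, Hoxd10 and Hoxd11 through their homozygous mTEC libraries alone. These 5 had to be lower at the lower dose, and all but Hoxd8 lie in groups 9 to 13. So neither the count nor its split by position can be read against the background. With the size factors of DESeq2 in place of TMM factors, 4 members were higher and 15 lower, and the share of higher genes among all calls was 35.6% in place of 48.4%. Libraries of the doses did not overlap for 6 members above and 24 below out of 36. So few libraries separate easily, and the share of all genes separated was not counted, so these numbers are no sign of a joint fall. Hoxc4 had 12.5 and 12.4 CPM in heterozygous against 4.49 and 3.93 CPM in homozygous mTEC, a log2 difference of 1.59 ± 0.20 (SE, adjusted p = 2.19e-05, edgeR). Hoxb3 had 3.01 and 2.50 against 0.926 and 1.57 CPM, a log2 difference of 1.16 ± 0.25. Hoxa2 had 13.4 and 13.5 against 8.43 and 9.68 CPM, a log2 difference of 0.60 ± 0.10. These 3 genes were higher at the lower dose in both subsets. Hoxb2 had 1.74 and 1.98 against 0.926 and 1.06 CPM, a log2 difference of 0.92 ± 0.26 (adjusted p = 0.00833, edgeR), which was not called without heterozygous mTEC library 2 (adjusted p = 0.0542) or homozygous mTEC library 1 (adjusted p = 0.0513).

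Among the members that fell, Hoxd3 led, with 1.51 and 1.27 CPM in heterozygous against 10.8 and 11.2 CPM in homozygous mTEC, a log2 difference of -2.95 ± 0.25 (SE, adjusted p = 3.54e-06, edgeR). Hoxd3 is a gene of the cervical vertebrae, and its gene model overlaps another, so its reads may not be fully separated. Hoxc11 differed by -2.21 ± 0.24, Hoxa13 by -1.87 ± 0.44, Hoxb13 by -1.26 ± 0.21 and Hoxc9 by -1.11 ± 0.26 on the log2 scale, with adjusted p from 2.17e-05 to 0.00518 (edgeR), and these 5 calls were made whichever mTEC library was left out. Hoxa13, like Hoxa11, Hoxd8, Hoxd10 and Hoxd11, was admitted by the filter through homozygous mTEC alone. It had to be lower at the lower dose, so its call is no support, and DESeq2 did not make it (adjusted p = 0.0741). The other 6 members called lower had few counts and lost the call when a library was left out. Hoxc13 (-0.97 ± 0.34), Hoxd10 (-1.41 ± 0.46) and Hoxd11 (-1.24 ± 0.43) were not called without any 1 of the 4 mTEC libraries, with adjusted p from 0.0571 to 0.191. The gene models of Hoxd10 and Hoxd11 overlap each other, so their reads may not be fully separated. Hoxd13 (-1.15 ± 0.33) was not called without heterozygous mTEC library 1 or homozygous library 1 or 2 (adjusted p = 0.118, 0.0800 and 0.0731). Hoxd8 (-1.24 ± 0.39) was not called without heterozygous library 1 or 2 or homozygous library 1 (adjusted p = 0.0847, 0.121 and 0.107), and Hoxa11 (-1.52 ± 0.46) without heterozygous library 2 or homozygous library 1 or 2 (adjusted p = 0.151, 0.0699 and 0.0892). DESeq2 called 4 members lower (Hoxd3, Hoxc11, Hoxb13 and Hoxc9), and limma-voom 14.

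The other 15 tested members did not pass in mTEC. Of these, 11 had both heterozygous libraries below both homozygous ones, with log2 differences from -0.22 ± 0.26 (SE) for Hoxb4 to -0.70 ± 0.32 for Hoxb6, adjusted p = 0.0715 (edgeR). Separation of so few libraries is a description only, and its share over all genes was not counted. Hoxa4 had 3.25 and 2.55 CPM in heterozygous against 1.81 and 2.27 CPM in homozygous mTEC, a log2 difference of 0.53 ± 0.22 (adjusted p = 0.0540, edgeR), and was called higher without heterozygous mTEC library 2 (adjusted p = 0.0377). Hoxc5 had 1.70 and 2.22 CPM against 1.53 and 1.30 CPM, a log2 difference of 0.49 ± 0.31.

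**Figure D5:**
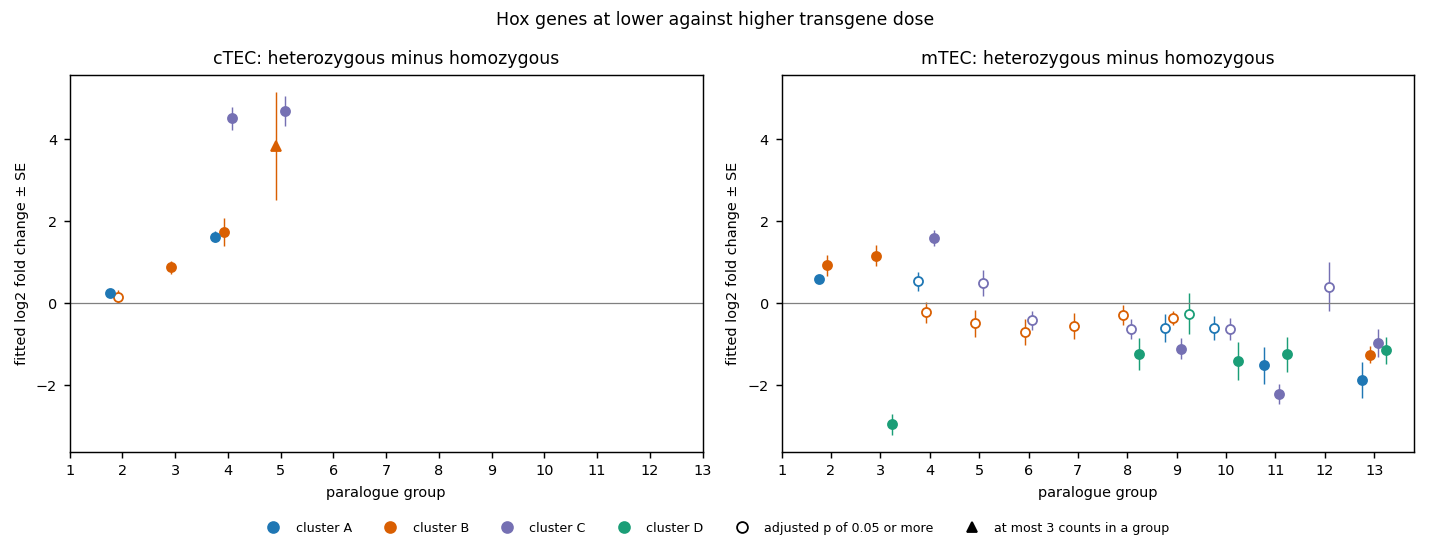
Fitted log2 fold change of heterozygous against homozygous cells (± SE) for tested Hox genes by paralogue group and cluster (colour), in cTEC (left) and mTEC (right); open points did not pass an adjusted p of 0.05, the triangle (Hoxb5) has at most 3 counts in a group, and genes with at most 3 counts in both groups are left out. On the left the points rise from Hoxb2 at 0.16 to Hoxc5 at 4.68, and on the right most points beyond paralogue 8 lie below 0. Of these, Hoxa11, Hoxa13, Hoxd10 and Hoxd11 were admitted by the filter through homozygous mTEC alone and had to lie there.

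Markers of immune cells moved with the dose in mTEC. The macrophage and dendritic cell markers summed to 105 to 108 CPM in heterozygous against 523 to 618 CPM in homozygous mTEC, with 5 of 6 lower by test, and the B cell markers to 15.7 to 19.0 against 33.9 to 41.3 CPM. The 8 thymocyte markers summed to 38.9 to 40.1 against 76.5 to 96.5 CPM, all 8 lower by test, where 30.8% of all genes tested were lower. Of the B cell markers, Pax5 was higher and 3 were lower by test. The Schwann and neural crest markers summed to 89.6 to 90.1 against 130 to 132 CPM, with Sox10 higher and 4 lower by test. The fibroblast markers summed to 403 to 413 against 466 to 526 CPM, with 3 higher and 3 lower. The mTEC markers summed to 3987 to 4066 against 4607 to 5030 CPM, with 1 higher and 4 lower. The share of all genes tested that were higher was 28.9%. The part of these cells in the Hox differences between the doses in mTEC was not tested.

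Whether the dose acted differently in the 2 subsets was tested as the mTEC difference minus the cTEC difference. Of the 30 tested members 5 were lower, where 17.2% of all genes tested were lower, and 1 higher, where 25.2% were. With the size factors of DESeq2 or without factors 5 members were lower and 0 higher, and the share of higher genes among all calls was 46.4% and 42.9% in place of 59.4%. The lower ones were Hoxc5 (-4.19 ± 0.52, SE), Hoxc4 (-2.91 ± 0.37), Hoxb4 (-1.95 ± 0.43), Hoxa4 (-1.09 ± 0.26) and Hoxb5 (-4.32 ± 1.36), with adjusted p from 3.54e-05 to 0.0248 (edgeR). For Hoxc5 this means 29.2 times the counts at the lower dose in cTEC and 1.39 times in mTEC (95% counting interval 0.984 to 1.96). Hoxc4 rose at the lower dose in both subsets, 25.3-fold in cTEC and 2.96-fold in mTEC by counts. Hoxb4 had 1.74 and 1.75 CPM in heterozygous and 1.99 and 2.13 CPM in homozygous mTEC, a log2 difference of -0.22 ± 0.26 that did not pass, against its rise in cTEC. The call of Hoxb5 was lost without heterozygous cTEC library 3 (adjusted p = 0.0880) or heterozygous mTEC library 2 (adjusted p = 0.0530). Hoxa2 was the member called higher (0.36 ± 0.12, adjusted p = 0.0301, edgeR), and it was not called without heterozygous cTEC library 1 or 3, heterozygous mTEC library 1 or 2, homozygous cTEC library 2 or homozygous mTEC library 1 (adjusted p = 0.0510, 0.0709, 0.0933, 0.0879, 0.0655 and 0.102). Of the 24 members not called, 20 had at most 3 counts over the 6 transgenic cTEC libraries, so that a dose difference in cTEC was not detectable at this depth.

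Deleting Foxn1 in cTEC for 72 h gave no call among the Hox genes. The filter left 4 members to test, all of paralogue groups 1 to 4, and the edgeR quasi-likelihood test called 0 higher, where 0.282% of all 15224 genes tested were higher, and 0 lower, where 1.69% were. At an unadjusted p under 0.05 the number was also 0, where 19.3% of all genes tested met that threshold. With only 4 members tested, this does not set the Hox genes apart from other genes. DESeq2 and limma-voom also called 0. Hoxa2 had 27.4, 34.2, 28.5, 34.7 and 20.8 CPM in the 5 control and 30.0, 38.3, 32.0, 36.8 and 28.8 CPM in the 5 deleted libraries, a log2 difference of 0.17 ± 0.13 (SE, adjusted p = 0.489, edgeR). Hoxa4 had 9.41, 15.5, 7.08, 10.01 and 5.45 CPM in control and 10.5, 16.2, 12.2, 11.1 and 12.1 CPM in deleted cTEC, a log2 difference of 0.38 ± 0.23. The groups overlapped for both genes. Hoxb2 had 2.88, 2.64, 1.80, 3.17 and 2.64 CPM in control and 3.37, 1.78, 2.59, 2.34 and 1.93 CPM in deleted cTEC. Hoxb3 had 2.15, 2.14, 1.53, 3.44 and 1.97 CPM in control and 3.46, 1.41, 1.77, 1.42 and 1.21 CPM in deleted cTEC. These overlapped as well, with log2 differences of -0.14 ± 0.23 for Hoxb2 and -0.28 ± 0.33 for Hoxb3. The cTEC markers moved in the same libraries, with 5 of 8 called lower after deletion.

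The other 32 members had too few counts for the deletion test. Hoxc4 and Hoxc5, the members with the largest dose difference in cTEC, had 8 and 3 counts over the 5 deleted libraries and 12 and 7 over the 5 control libraries, ratios of 0.688 (95% counting interval 0.244 to 1.83) and 0.442 (0.0738 to 1.94). Both intervals include 1, and their upper bounds lie below the dose ratios of 25.3 and 29.2. The deletion was read 72 h after doxycycline, in another cross with another Foxn1 allele. So the ratios of deletion and dose are not like for like, and this decides nothing about the dose difference. Hoxb4 had 15 against 18 counts, Hoxd3 28 against 22 and Hoxd8 29 against 18, each with an interval that includes 1. Hoxa7 had 20 counts in deleted against 47 in control cTEC, a ratio of 0.439 (0.247 to 0.756), but its control libraries ranged from 0.0906 to 0.722 CPM and its deleted libraries from 0.0913 to 0.321 CPM, which overlap. Counting intervals and floors cover counting error only and not the spread between libraries.

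The clusters differed in their summed levels, which follow their most abundant genes. Cluster A (chr6:52162417-52260880) gave the highest sum in cTEC, 55.8 to 59.4 CPM in heterozygous and 34.3 to 37.9 CPM in homozygous cells. Its sum was lower in mTEC, at 19.1 to 20.3 and 16.0 to 18.8 CPM. In homozygous cTEC this sum was nearly all Hoxa2 and Hoxa4, with 1962 and 339 counts. These 2 genes had both homozygous mTEC libraries below all homozygous cTEC libraries, and the other 7 of its 9 members had both above. Cluster B (chr11:96194316-96368254) was higher in mTEC, with 22.5 to 22.9 CPM in heterozygous and 29.4 to 30.0 CPM in homozygous cells, against 11.4 to 12.99 and 6.66 to 7.99 CPM in cTEC. Cluster C (chr15:102921131-103036856) had 25.4 to 25.7 CPM in heterozygous and 27.2 to 28.2 CPM in homozygous mTEC. In cTEC it had 8.20 to 13.3 CPM in heterozygous and 0.374 to 0.499 CPM in homozygous cells. Cluster D (chr2:74668225-74765142) had 0 counts in all 3 heterozygous cTEC libraries and at most 0.0907 CPM in homozygous cTEC, against 3.53 to 4.29 CPM in heterozygous and 16.5 to 16.6 CPM in homozygous mTEC. In control cTEC the sums were 27.2 to 49.96 CPM for A, 3.61 to 6.98 CPM for B, 0.0894 to 0.816 CPM for C and at most 0.581 CPM for D, and deleted cTEC overlapped them in every cluster.

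HOX proteins bind DNA together with TALE homeodomain proteins of the PBX, MEIS and PREP families. The list used here also holds Tgif1 and Tgif2, TALE genes outside these families. All 10 genes of that list were tested between the transgenic groups. In heterozygous against homozygous cTEC 4 were higher and 1 lower, with a median log2 difference of -0.01 against 0.00 over all genes, of which 20.9% were higher and 21.9% lower. Meis1, a HOX partner in blood and limb, had 284, 259 and 313 CPM against 155, 152 and 150 CPM, a log2 difference of 0.77 ± 0.08 (SE). Meis3 rose by 0.80 ± 0.09 and Pbx3 fell by 0.40 ± 0.06 on the log2 scale. In mTEC the dose gave 4 higher, with Meis1 at 0.85 ± 0.10 and Tgif2 at 0.84 ± 0.08, and 1 lower, Pbx4 at -1.09 ± 0.25, where 28.9% of all genes were higher and 30.8% lower. Between the subsets of homozygous mice 7 were lower in mTEC, with Meis1 at -1.57 ± 0.09, and 3 higher, with Pbx4 at 3.81 ± 0.31 and Meis3 at 1.54 ± 0.10, where 39.4% of all genes were lower and 43.2% higher. In heterozygous mice 3 were higher and 7 lower, where 40.4% and 31.6% of all genes were.

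The ParaHox genes and the Evx genes are the nearest relatives of the Hox clusters. Of 8 such genes 5 were tested, and all 5 were higher in mTEC than in cTEC in both genotypes, where 43.2% of all genes tested were higher in homozygous and 40.4% in heterozygous mice. The filter admitted these 5 through their mTEC counts alone, so that they had to be higher there. Cdx1, an intestinal regulator that also acts on Hox genes in the embryo, had 206 ± 11.7 CPM in heterozygous and 212 ± 35.6 CPM in homozygous mTEC (SD, n = 2 each), against 0.291 ± 0.0968 and 0.325 ± 0.0917 CPM in cTEC (SD, n = 3 each). Cdx2, the intestinal master regulator, had 8.13 ± 0.313 and 8.63 ± 0.0973 CPM in mTEC. Of the 5, 0 were called by dose in cTEC and 2 were lower in heterozygous mTEC, Cdx4 by -2.68 ± 0.62 and Gsx2 by -2.38 ± 0.60 on the log2 scale, both admitted by the filter through homozygous mTEC alone. In transgenic cTEC the 8 genes together summed to at most 0.421 CPM per library.

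Polycomb complexes keep Hox genes silent and trithorax proteins keep them active. Of 18 Polycomb genes, 6 were higher and 3 lower in heterozygous cTEC, with Bmi1 at 0.70 ± 0.08 and Ezh2 at 0.67 ± 0.08 against Cbx8 at -0.30 ± 0.08 and Ezh1 at -0.19 ± 0.06 (log2 difference ± SE). Over all genes 20.9% were higher and 21.9% lower. Without normalization factors the numbers were 9 and 0. In mTEC 9 were higher and 2 lower at the lower dose, led by Cbx2 at 0.91 ± 0.08 and Phc1 at 0.64 ± 0.07, and with the size factors of DESeq2 6 and 3. Between the subsets 5 were higher and 11 lower in homozygous mTEC, with Jarid2 at 0.61 ± 0.06 and Bmi1 at 0.87 ± 0.08 against Rnf2 at -0.95 ± 0.06 and Cbx8 at -1.67 ± 0.10. Of 11 trithorax and H3K27 demethylase genes, 9 were higher and 0 lower in heterozygous mTEC, among them the core subunit Ash2l at 0.62 ± 0.06 and the demethylase Kdm6b at 0.90 ± 0.11. In heterozygous cTEC 3 were higher and 2 lower, with Ash2l at -0.55 ± 0.05, and without normalization factors 7 and 1. In homozygous mTEC against cTEC 1 was higher, Kdm6a at 0.38 ± 0.09, and 10 lower, with Psip1 at -1.21 ± 0.07. The median log2 difference in mTEC was 0.19 over the Polycomb and 0.46 over the trithorax list, against 0.01 over all genes, and between the subsets of homozygous mice -0.39 and -0.64 against 0.04. The shares of all genes called were 28.9% higher and 30.8% lower for dose in mTEC and 43.2% and 39.4% between these subsets.

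Retinoic acid is the classical inducer of 3′ Hox genes. Of 15 genes of its pathway 4 were higher and 2 lower in heterozygous cTEC, where 20.9% and 21.9% of all genes were. Rdh10, which makes the retinal precursor, had 108 ± 39.8 against 35.1 ± 1.98 CPM (SD, n = 3 each), a log2 difference of 1.48 ± 0.21 (SE). Cyp26b1, which degrades retinoic acid, had 0.337 ± 0.0967 against 3.70 ± 0.810 CPM, a log2 difference of -3.57 ± 0.30, and the receptor gene Rxrg fell by 2.78 ± 0.30. Without normalization factors 7 were higher and 2 lower. In mTEC 2 were higher and 6 lower at the lower dose, against 28.9% and 30.8% of all genes, with the degrading enzyme gene Cyp26a1 at -1.40 ± 0.14 and the binding protein gene Crabp1 at -1.82 ± 0.17 against Rarb at 0.71 ± 0.21. Between the subsets of homozygous mice 6 were higher in mTEC, led by Cyp26a1 with 60.2 ± 2.69 against 0.0782 ± 0.0972 CPM, and 5 lower, among them Rarb at -3.12 ± 0.17 and Rxra at -1.46 ± 0.07, where 43.2% of all genes were higher and 39.4% lower.

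Most of the 23 noncoding entries of the clusters were at or near 0, and 5 were tested. Many are numbered entries under a shared name, such as HOTAIR and HOTTIP, so entries at 0 do not count silent transcripts. In homozygous mTEC HOTAIR_2 and HOTAIR_3 were at 0 although Hotair was read. Hoxb3os, an antisense transcript in cluster B, had 16.7 ± 1.85 CPM in heterozygous and 10.6 ± 1.28 CPM in homozygous cTEC (SD, n = 3 each), a log2 difference of 0.53 ± 0.13 (SE, adjusted p = 0.00526, edgeR). The strand setting of the counting is not given in the sources used here, so its reads and those of genes on the opposite strand may not be separated. Hotair, a noncoding transcript between Hoxc11 and Hoxc12, had 0 counts in the 6 transgenic cTEC libraries. It had 0.707 ± 0.0656 CPM in heterozygous and 2.08 ± 0.262 CPM in homozygous mTEC (SD, n = 2 each), a log2 difference of -1.53 ± 0.32 (adjusted p = 0.00267, edgeR), the direction of its neighbour Hoxc11.

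After deletion 54 genes of these 6 lists were tested in cTEC and edgeR called 0 of them. At an unadjusted p under 0.05 there were 12, among them 5 of 11 trithorax and demethylase genes (Ash2l, Kdm6a, Kdm6b, Kmt2b and Psip1), 3 of 18 Polycomb genes (Cbx2, Cbx8 and Phc2), 2 of 9 TALE genes (Meis3 and Tgif1) and 2 of 12 retinoic acid genes (Cyp26b1 and Rxrg). Of all 15224 genes tested, 19.3% met the same threshold. The deletion call over these lists was not repeated with DESeq2 or limma-voom.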

How the data were processed

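The values are read counts per gene, deposited by the authors as whole numbers for 38720 genes named by symbol in 20 libraries of polyadenylated RNA. The submitters' processing notes list featureCounts, TopHat2 2.0.10, Trimmomatic 0.32, BWA 0.7.5, Bowtie2 2.2.3, MACS2 2.0.10, Picard 1.105 and SAMtools, with the builds GRCm38 and mm10. The step each tool served, the annotation and the strandedness of the counting were not given in the sources used here. Overlapping genes may therefore share or lose reads. The series' chromatin samples were left out.

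The quasi-likelihood test of edgeR 4.0.16 (R 4.3.3) was applied to the counts, two-sided, with TMM factors, filterByExpr (minimum count 10, minimum total 15), a prior count of 0.125 and Benjamini-Hochberg adjustment over all genes tested, at an adjusted p of 0.05. The 10 transgenic libraries shared a single fit with 4 groups, and the 10 libraries of the deletion had their own. The code was checked on simulated counts. CPM uses raw totals, and ratios of counts have exact 95% intervals. A group at 0 was set to a floor of 3 counts over the group, which gives a lower bound. Alternatives were DESeq2 1.42.0, limma-voom (limma 3.58.1), DESeq2's size factors, no factors, no filter, only the groups compared, a block by library number and each library left out.

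Some genes of these families and lists are not reported here. The members, gene lists and tests were chosen with earlier results of these data known. Members past the threshold in any comparison, or with a mean of at least 1 CPM in a group, were named, and from each list up to 2 genes per direction and comparison by smallest adjusted p. A few other genes (Dcn, Sox10, Cdx2 levels, Foxn1) are given beside a result. Replicate libraries differed by more than sampling noise. Library numbers were not taken as pairs: 4 of 5 same-numbered pairs of the deletion correlated above 0.1 (0.0853 to 0.754), and 0 of 13 of the transgenic set did.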

Additional observations from a re-analysis of the deposited data

Results flagged for a closer look

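The effect of dose differed between mTEC and cTEC, by a test of the difference itself, for 6 members: by -4.32 for Hoxb5, -4.19 for Hoxc5, -2.91 for Hoxc4, -1.95 for Hoxb4, -1.09 for Hoxa4 and 0.36 for Hoxa2 on the log2 scale (edgeR). The value of Hoxb5 rests on 5 counts in heterozygous cTEC, and the calls of Hoxb5 and Hoxa2 depend on single libraries.

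Among the 5 deleted cTEC libraries, library 1 stood apart for Hoxb3, with 3.46 CPM against 1.77 CPM in the next, and its gap was 0.749 of the group's range where 0.71 is the critical value of Dixon's test for 5 libraries. It was the 1 such case among 8 combinations of gene and group examined. Chance gives about 1 in 20 for each combination, so 1 case among 8 is not rare.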

How the results depend on the processing

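No called direction reversed under any alternative that was run. The count of members lower in heterozygous mTEC was 11 and became 4 with DESeq2 and 6 to 7 with a library left out. It was 15 with DESeq2's size factors, 14 with limma-voom, 15 with only the groups compared and 10 without a filter. The count higher in mTEC than in cTEC of heterozygous mice was 25. It became 18 with only the groups compared, 24 with DESeq2 and 26 without a filter. In homozygous mice this count was 26 and became 24 with only the groups compared and 29 without a filter. The count higher in the interaction was 1 and became 0 with DESeq2's size factors, no normalization factors, no filter and DESeq2, and ranged from 0 to 1 with a library left out. Over all genes the deletion gave 300 calls, 1108 with DESeq2, 104 with limma-voom, 1220 with the replicate block and 27 to 920 with a library left out, and the cause of this spread was not tested. Library numbers pair nothing by the labels. With the replicate block Hoxb5 in cTEC (adjusted p = 0.0534) and Hoxd11 in mTEC (adjusted p = 0.0559) lost their calls, and 6 members were called higher and 0 lower in cTEC and 4 and 10 in mTEC. In the deletion 8 of 10 libraries correlated best with their own number, a hint from the data and not the design, and in the transgenic set 6 of 10. Without factors the median log2 difference of all genes moved from 0.00 to 0.11 for dose in cTEC, from 0.04 to 0.28 between the subsets of homozygous mice and from 0.05 to -0.11 for the interaction. With DESeq2's size factors it moved from 0.01 to -0.12 for dose in mTEC and from 0.04 to 0.22 between the subsets of homozygous mice. At this depth most members of groups 5 to 13 are at or under the floor in cTEC.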
